A study of Drosophila melanogaster with 3 samples.

Results

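The genes described here are 10 replication genes of Drosophila melanogaster, out of 13968 protein-coding genes on the main chromosome arms: Orc1 and Orc2, dup, Mcm2, Mcm3, dpa, Mcm5, Mcm6 and Mcm7, and PCNA. They were chosen by name, as a class known for promoters that carry the DNA replication-related element (DRE), TATCGATA. Chromatin immunoprecipitation followed by sequencing (ChIP-seq) located the protein CG34224 on the genome. The flies were of the transgenic strain CG34224-GFP and carried CG34224 fused to eGFP, a green fluorescent protein, and the fusion was precipitated with an antibody to GFP. Whole embryos aged 0 to 24 hours were used, so every library pools all tissues and stages; no source used here says what drives the fusion gene. The 3 libraries were biological replicates of this single group, and the labels do not say whether they came from separate cages or collections. The files hold peaks and no expression values, so the labelled tissue could not be checked against marker genes. The depth of each library is unknown, and list length could not be checked against it. Replicates 1, 2 and 3 had 2667, 2841 and 4145 thresholded peaks on the main arms. The authors' conservative list, derived from all 3 libraries, had 4393 such peaks.

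Before S phase, the origin recognition complex, to which Orc1 and Orc2 belong, binds origins of replication. Together with Cdc6 and the loading factor Cdt1, which is dup in Drosophila, it loads the ring-shaped Mcm helicase, made of Mcm2, Mcm3, Mcm4 (dpa in Drosophila), Mcm5, Mcm6 and Mcm7. During synthesis PCNA encircles DNA as the sliding clamp that holds the polymerases. Genes of this machinery are known for promoters with a DRE, the binding sequence of the factor Dref, and with E2F sequences, which the cell-cycle factor E2F and its partner Dp bind.

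The stretches below are shown because they hold the letters on which the comparison of summits and sequence turns. Sequence is that of RefSeq, Release 6 plus ISO1 MT, which is dm6, and each is written 5′ to 3′ on the strand of the named gene. The first Mcm5 stretch covers the summit in the conservative list, at chr3R:10788239-10788389 on the plus strand, with CGATA on either strand in capitals. Its CGATA copies begin at -275 and -264 from the Mcm5 start, and the summit is at -181. The window of 50 bp to either side of that summit holds no CGATA. The second is the last 100 bases before the Mcm5 start site, at chr3R:10788424-10788523, with ATCGAT, the inner 6 bases of the DRE, and CGATA in capitals. The Mcm6 stretch surrounds an ATCGAT beside the conservative summit, at chrX:6673941-6673970 on the plus strand, with the overlapping CGATA also in capitals. The Mcm3 stretch spans its start site, at chrX:5323830-5323859 on the plus strand, with the core promoter sequence Motif 1 and an E2F sequence in capitals. Both Orc2 stretches are on the plus strand, at chr3R:13964673-13964702 and chr3R:13964891-13964920, with the full DRE in capitals.
Mcm5 at the summit: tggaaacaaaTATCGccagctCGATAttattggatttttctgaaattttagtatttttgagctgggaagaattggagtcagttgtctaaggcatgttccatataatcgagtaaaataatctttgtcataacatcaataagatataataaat
Mcm5 before the start: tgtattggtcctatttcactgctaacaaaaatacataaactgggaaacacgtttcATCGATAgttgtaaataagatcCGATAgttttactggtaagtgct
Mcm6 by the summit: aattcgcgtggTATCGATtatttcggaata
Mcm3 at the start: agtaTGGTCACACTAcgctTTTCCCGCgaa
Orc2 upstream DRE: taatttaaattTATCGATAacgtatgcaat
Orc2 downstream DRE: catgtcttagtTATCGATAattcccgccac
The Mcm5 and Mcm6 stretches have no complete DRE, although the Mcm5 stretch before the start and the Mcm6 stretch each have an unbroken run of 7 of its 8 bases, whereas the Orc2 promoter has 2 complete copies. At 7 of the 32 further replication genes with a conservative promoter peak, a whole DRE lay within 50 bp of the summit. The same was true of 16.3% of 3624 conservative promoter peaks. At Orc5, PolA2, mus101 and RPA3 another gene's start was nearer the summit, and the RPA3 DRE began at -306. The next sequences are the DREs closest to the summit at these 7 genes, and those of the unbound PolD3 and Sld5. They lie at chr3R:21671795-21671824 (PolA1, minus strand), chr2L:13829756-13829785 (Orc5, plus), chr3R:27239136-27239165 (PolA2, plus), chrX:13722021-13722050 (mus101, plus), chrX:10385119-10385148 (Psf3, minus), chrX:11616128-11616157 (RPA3, minus), chr3L:5897418-5897447 (PolE2, minus), chr2L:15256534-15256563 (PolD3, minus) and chr3R:26056623-26056652 (Sld5, minus).
PolA1: cttaacgacacTATCGATAttacattgcaa
Orc5: ttatttcgttaTATCGATAtttttcgattg
PolA2: ctgactatgctTATCGATAagaaaactcaa
mus101: ttaatgaaataTATCGATAgcttaaaccaa
Psf3: aatgcatctaaTATCGATAggcgataggtc
RPA3: agtctaaaaacTATCGATAcatcgatgtaa
PolE2: atgcacatagaTATCGATAattgacaacat
PolD3: caagtagatgtTATCGATAgatagcagttg
Sld5: tgcttttgtgaTATCGATAacggttagacg

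A gene was counted as bound where the summit of a thresholded peak lay within 500 bp of any of its start sites. In the conservative list 3 of the 10 genes were bound, PCNA, Mcm5 and Mcm6, beside 29.7% of all protein-coding genes, so the share was close to that of genes at large. In replicate 1 the same 3 genes and dup were bound, 4 of 10 beside 21.1% of coding genes. In replicate 2 they were joined by dpa and Mcm7, 5 of 10 beside 22.3%. In replicate 3 the bound genes were again PCNA, Mcm5, Mcm6 and dup, 4 of 10 beside 28.6%. The mean over the replicates was 43.3% ± 5.77 (SD, n = 3) of the 10 genes and 24.0% ± 4.07 (SD, n = 3) of coding genes. With 10 genes, 1 gene is 10% of the set. PCNA, Mcm5 and Mcm6 were bound in all 3 replicates, as were 17.3% of coding genes, and 6 of the 10 genes were bound in at least 1 replicate, as were 31.5% of coding genes. Mcm2, Mcm3, Orc1 and Orc2 were bound in none. In the remaining thresholded series lists, named a, b and c here by falling length, 5, 4 and 3 of the 10 genes were bound, beside 32.4%, 28.8% and 26.4% of coding genes.

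**Figure D1:**
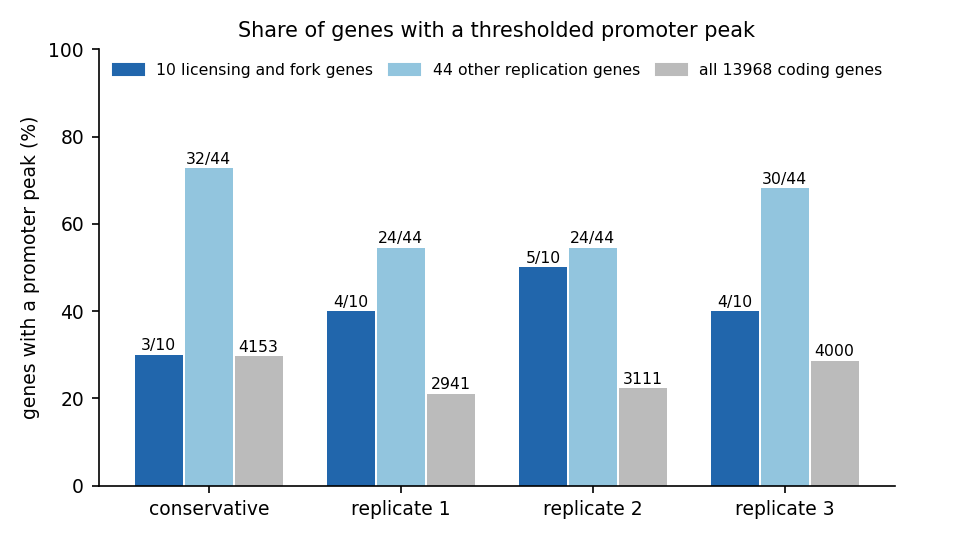
Share of genes with a thresholded peak summit within 500 bp of a start site (y axis, percent) in the conservative list and in each replicate's list, for the 10 licensing and fork genes, 44 other replication genes and all 13968 protein-coding genes; labels give the number of bound genes. The 10 genes stood at 3 of 10 in the conservative list, next to 29.7% of coding genes, and the other replication genes at 32 of 44.

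Counting a gene only where no other coding gene's start site was nearer the summit left 1 of the 10 genes in the conservative list, PCNA, beside 22.9% of coding genes. By that count replicate 1 had 1 (15.8% of coding genes), replicate 2 had 4 (16.6%) and replicate 3 had 2 (21.9%). Series lists a, b and c had 2 (25.2%), 1 (22.2%) and 1 (20.2%). Among all 4153 coding genes bound in the conservative list, 1091 (26.3%) had another gene's start site nearer to their strongest peak. At Mcm5 and Mcm6 the strongest summit was nearer to a divergently transcribed neighbour in the conservative list and in every replicate. A summit near 2 start sites is not assigned to either by the peak lists.

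The peaks of the 3 genes bound throughout ranked in the same order in replicates 1 and 2, and Mcm5 was first in all 3. Signal is the authors' peak caller's value, so it was compared within a list only, as a rank or as a percentile in which 100 is the strongest peak. Mcm5 stood at 87.98 ± 5.49, PCNA at 64.69 ± 5.72 and Mcm6 at 56.4 ± 17.5 on the percentile scale (mean ± SD, n = 3 each). The lowest percentile of Mcm5, 81.8, was above the highest of PCNA, 70.6, so these neighbours in the order did not overlap. The percentiles of PCNA and Mcm6 overlapped, with Mcm6 above PCNA in replicate 3 only. An exact paired permutation test over 3 replicates cannot give a 2-sided p below 0.25, so none was used. In the conservative list the median percentile of the 3 bound genes was 74.1, beside 64.5 for all bound coding genes. The replicates differed in this. The median of the bound members was below that of bound coding genes in replicate 1 (48.4 beside 59.8) and replicate 2 (59.3 beside 60.0). It was above in replicate 3 (68.2 beside 63.0).

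Orc1 (FBgn0286788, 2R 7522437 to 7525716, minus strand), the largest subunit of the origin recognition complex, had no thresholded peak in any list. Its strongest ranked peak had a signal of 19.97, 38.34 and 51.17 in replicates 1, 2 and 3, with scores of 84, 780 and 64 on the authors' scale, whose lowest value in every thresholded list was 830. Replicate 2 alone was close to that limit. The summits lay at 366 and 58 bp downstream of the start site in replicates 1 and 2 and 86 bp upstream in replicate 3, so the replicates did not mark 1 position. The nearest conservative summit was 4864 bp away.

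Orc2 (FBgn0015270, 3R 13964885 to 13967075, plus strand), a second subunit of that complex, also had ranked peaks only. Their strongest signals were 25.86, 33.74 and 47.63 and their scores 106, 538 and 57 in replicates 1, 2 and 3. The summits lay 351 bp downstream, 61 bp upstream and 112 bp upstream of the start site. A weaker ranked peak of replicate 3, with a signal of 19.42 and its summit 126 bp downstream, had a higher score of 575. All were under the threshold in each replicate, and they were spread over the promoter and the first part of the gene. Of the 10 genes Orc2 was the one with 2 complete DREs in its promoter window, at positions -201 to -194 and 18 to 25 from its start site, yet no thresholded list placed a summit within 500 bp. The ranked lists of the series had a peak there with a signal of 67.83, its summit 48 bp downstream of the start and 27.5 bp from the centre of the downstream DRE, and scores of 32 to 221. The nearest conservative summit was 11345 bp away.

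The loading factor gene dup (FBgn0000996, 2R 15376619 to 15380988, minus strand) had a thresholded peak in replicates 1 and 3 and in series lists a and b, but not in the conservative list. The signal was 70.75 in replicate 1, rank 1837, and 121.93 in replicate 3, rank 1952. In replicate 2 the ranked peak had a signal of 29.52 and a score of 390, under the threshold. The summits of the thresholded replicate peaks lay 347 and 427 bp upstream of dup and 114 and 34 bp from a start site of SRPK, which encodes a kinase of splicing factors. The neighbour's start was thus nearer in both, with the summit inside an intron of SRPK in replicate 1 and inside its 5′ UTR in replicate 3.

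Among the helicase genes, Mcm5 (FBgn0017577, 3R 10788524 to 10791150, plus strand) had the strongest peak of the 10 genes. Its signal was 156.25, 201.69 and 282.31 in replicates 1, 2 and 3, at ranks 485, 216 and 428, and 602.34 at rank 443 in the conservative list, where the peak spanned 3R 10788158 to 10788566. All 3 replicates thus placed it well above the middle of their lists. The conservative summit lay outside annotated genes between 2 divergent start sites 298 bp apart, 181 bp upstream of Mcm5 and 117 bp from Art1, which encodes an arginine methyltransferase. The replicate summits lay 203, 183 and 205 bp upstream of Mcm5 and 95, 115 and 93 bp from Art1, so every summit fell in the gap between the start sites, nearer to Art1. Weak further summits fell in the Mcm5 5′ UTR, 18 bp downstream of the start in replicate 2 (signal 20.62, percentile 5.1) and 4 bp downstream in replicate 3 (signal 17.47, percentile 0.6). Through these summits Mcm5 still counted in those replicates when only the nearest gene was counted.

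Mcm6 (FBgn0025815, X 6674387 to 6677176, plus strand) had signals of 77.01, 99.68 and 174.69 in replicates 1, 2 and 3, at ranks 1664, 1156 and 1151. Its percentile ran from 37.6 in replicate 1 to 72.2 in replicate 3, the widest range of the 3 genes bound throughout. In the conservative list the signal was 374.98, rank 1140, at X 6673865 to 6674033. The summit lay 425 bp upstream of Mcm6 and 11 bp from the start site of CG3198, inside the 5′ UTR of that gene, which runs the other way. The replicate summits were 422, 437 and 440 bp upstream of Mcm6 and 8, 23 and 26 bp from CG3198. A second conservative peak, 217 bp upstream of Mcm6 and 197 bp from CG3198, had a signal of 46.82 at percentile 3.5. Both peaks were therefore nearer to CG3198, whose start is 414 bp from that of Mcm6.

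The Mcm4 gene dpa (FBgn0015929, 2R 7496702 to 7500145, minus strand) shares its promoter with didum, a myosin gene, whose start lies 2 bp away on the opposite strand. It had a thresholded peak in replicate 2, with a signal of 54.12 and a score of 925, 61 bp inside the dpa 5′ UTR, and in series list a with a signal of 123.27 and a score of 844. In replicates 1 and 3 the ranked peak had signals of 34.92 and 53.1 and scores of 63 and 124. The 3 replicate summits lay within the 5′ UTR, 95, 61 and 110 bp from the outermost start, and only replicate 2 passed the threshold.

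Mcm7 (FBgn0020633, 3L 8891596 to 8894310, plus strand) had thresholded peaks in replicate 2 alone. The stronger had a signal of 31.83, at percentile 7.2, and a score of 836, 185 bp upstream of the Mcm7 start. The weaker had a signal of 16.14, at percentile 3.1, with its summit 424 bp upstream in the 3′ UTR of another gene. The ranked peaks of replicates 1 and 3 had signals of 40.01 and 43.46, scores of 551 and 791, and summits 61 and 81 bp downstream. Position and call therefore both differed between replicate 2 and the other replicates. An annotated antisense RNA gene overlaps this start, and peaks carry no strand.

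Mcm2 (FBgn0014861, 3R 8264970 to 8267924, plus strand) had ranked peaks with signals of 17.73, 13.57 and 38.53 and scores of 53, 35 and 156 for the strongest in each replicate. In replicate 1 the strongest summit lay 331 bp upstream of Mcm2 and 188 bp from the start of RPA1. In replicate 2 it lay 71 bp downstream, in the Mcm2 5′ UTR. In replicate 3 it lay 500 bp upstream, on the limit of the distance, and 19 bp from the start of RPA1. A weaker peak of replicate 3, 57 bp upstream of Mcm2, had a score of 323. RPA1, a subunit of the single-stranded DNA-binding complex, was itself unbound in every thresholded replicate list. Mcm3 (FBgn0284442, X 5323855 to 5326738, plus strand) was the only one of the 10 with no peak within 500 bp in any ranked list. Its nearest conservative summit, 1167 bp away, lay 8 bp from the start of Rnp4F, an RNA-binding protein gene named here after its values were seen, and had a signal of 266.13.

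PCNA (FBgn0005655, 2R 20261754 to 20262883, minus strand) was the one gene of the set with a conservative peak nearest to its own start site. Its signal was 102.76, 121.95 and 147.98 in replicates 1, 2 and 3, at ranks 1088, 835 and 1484, and 369.89 at rank 1162 in the conservative list. The peak spanned 2R 20262817 to 20263004, and its summit lay 55 bp upstream of the start, outside annotated genes. In the replicates the summit was 64, 27 and 63 bp upstream. PCNA was also the only one of the 10 with a full DRE within 50 bp of a thresholded summit: the centre of the DRE was 31.5 bp from the conservative summit and 40.5, 3.5 and 39.5 bp from those of replicates 1, 2 and 3.

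**Figure D2:**
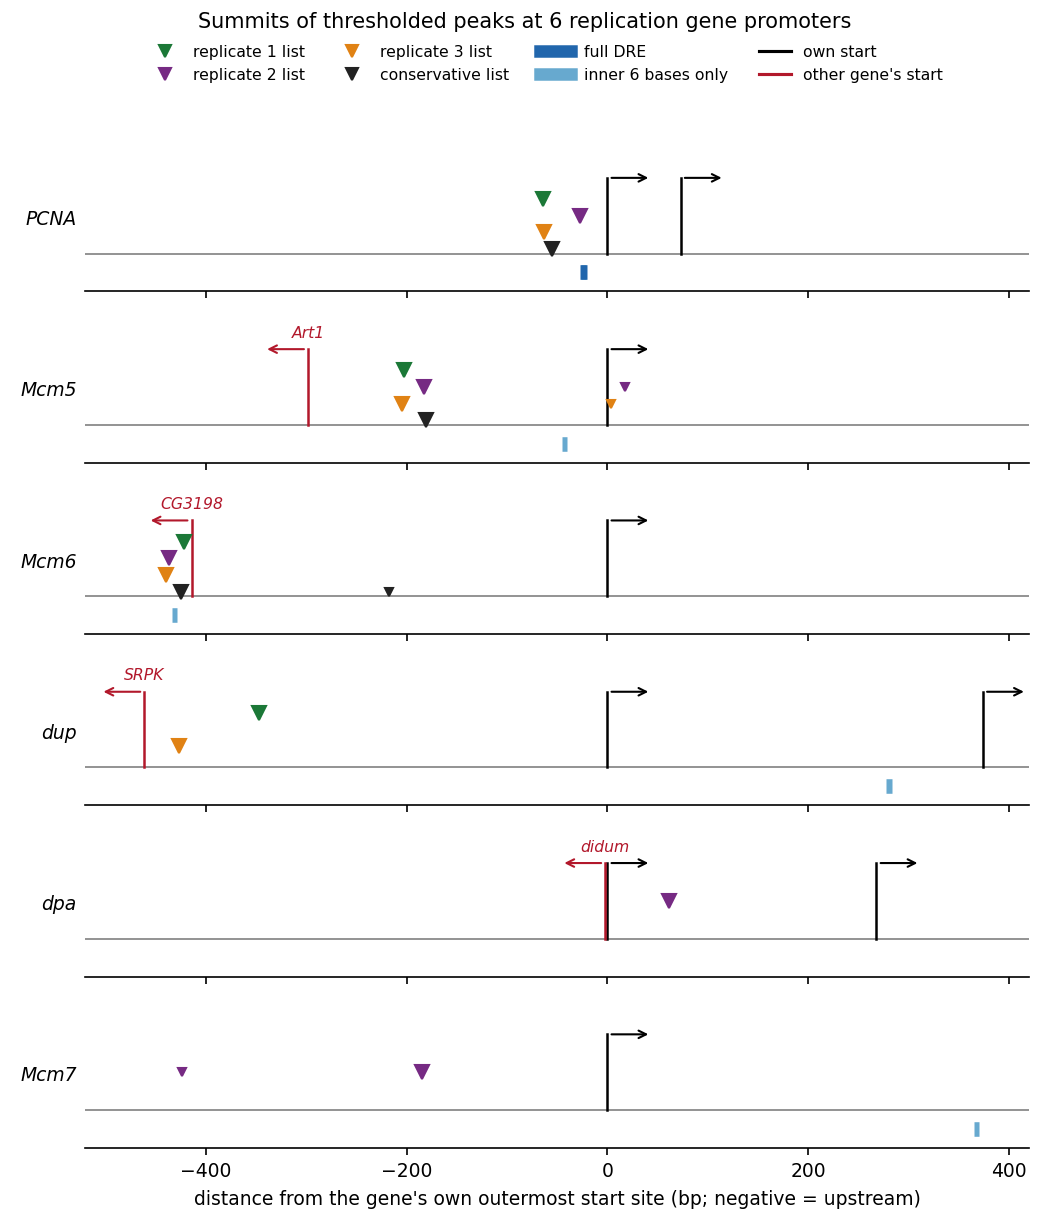
Summits of thresholded peaks (triangles, by list; small triangles are weaker second peaks) at the 6 replication genes that had one, as the distance in bp from each gene's own outermost start site (x axis), with the gene's own start sites (black) and the neighbour's start nearest the summits (red) as arrows and DRE sequences as bars. Summits at PCNA lay 27 to 64 bp upstream of its start beside a full DRE. At Mcm6 the strongest summits lay 422 to 440 bp upstream, next to the start of CG3198, and a weaker conservative summit lay 217 bp upstream.

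In the ranked lists, which hold all peaks before the threshold, 9 of the 10 genes had a summit within 500 bp in each replicate, beside 61.6%, 59.6% and 69.8% of coding genes in replicates 1, 2 and 3. The ranked lists are long, with 40130, 31426 and 57471 peaks, and most coding genes have such a peak. In the 4 ranked lists of the series the same count was 9 of 10, beside 67.9%, 65.2%, 65.2% and 63.0%. PCNA stood at percentiles of 97.2, 97.2 and 97.3 of the ranked lists and Mcm5 at 98.7, 99.3 and 99.2. Mcm6 stood at 95.6, 96.2 and 97.9. The other 6 genes with a ranked peak ranged from 20.5, Mcm2 in replicate 2, to 96.4, dup in replicate 3. The members just inside the score threshold were Mcm7 in replicate 2 with 836 and Mcm6 in replicate 1 with 837. Just outside were Mcm7 in replicate 3 with 791 and Orc1 in replicate 2 with 780.

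**Figure D3:**
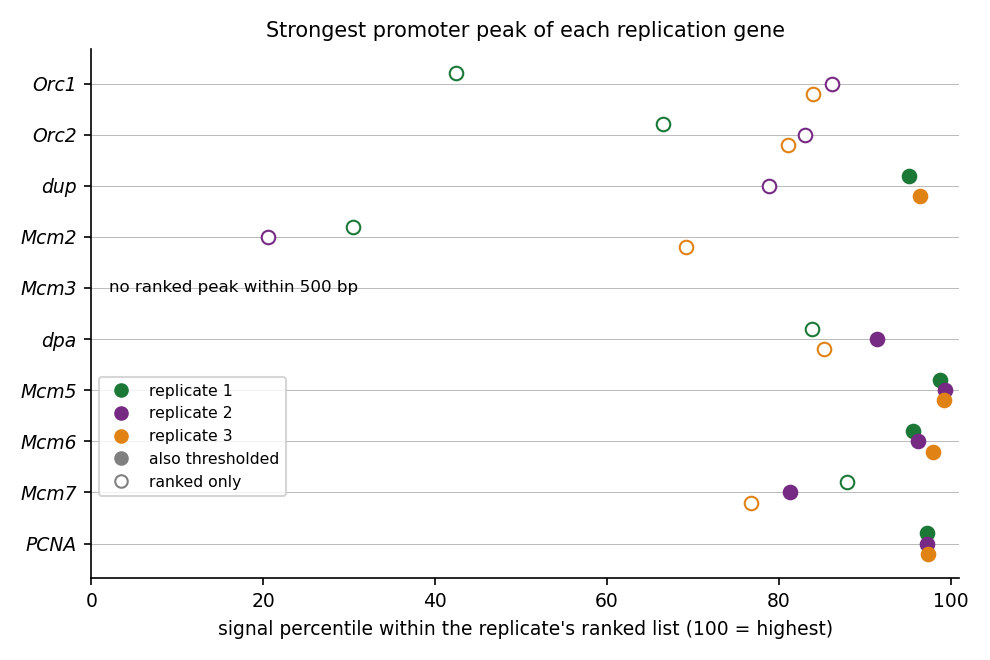
Signal percentile of the strongest peak within 500 bp of a start site in each replicate's ranked list (x axis, 100 is the highest) for the 10 genes; filled points also passed the authors' threshold, open points did not. PCNA, Mcm5 and Mcm6 were filled in all 3 replicates at 95.6 or above, and Mcm3 had no peak.

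The promoter window, from 250 bp upstream to 50 bp downstream of any start site, was searched on both strands. A match describes the letters and is not a site or a cause, and a missing match says only that these letters are not in the window. The DRE, TATCGATA, was present at 2 of the 10 genes, PCNA and Orc2, beside 10.2% of coding genes. Its inner 6 bases, ATCGAT, were present at Mcm5, Orc2, PCNA and dup, beside 26.3%, a count that includes full DREs. CGATA was present at 6 of the 10, beside 53.0%, and also overlaps every DRE. The E2F sequences TTTGGCGC, TTTGCCGC, TTTCGCGC and TTTCCCGC were the letters shared most widely by the set. At least 1 of them was present at 7 of the 10 genes, Mcm2, Mcm3, Mcm5, Mcm6, Orc1, dpa and dup, beside 8.68% of coding genes. No promoter of the 10 had both a DRE and an E2F sequence, and that of Mcm7 had neither.

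Over all coding genes, a DRE in the promoter went with a higher bound share than an E2F sequence did. Of the 1419 genes with a DRE 81.3% were bound in the conservative list, against 23.9% of those without. In the replicates the shares were 68.9%, 73.0% and 80.0% with a DRE and 15.7%, 16.5% and 22.8% without, so the ranges did not overlap. Of the 1212 genes with an E2F sequence 37.8% were bound, against 29.0% of those without. The class with an E2F sequence but no DRE, to which 7 of the 10 genes belong, was bound at 32.4% of 1088 genes and at 2 of those 7. The class with a DRE but no E2F sequence was bound at 80.8% of 1295 genes and at 1 of 2, PCNA but not Orc2. The 124 genes with both were bound at 85.5%, and the 11461 with neither, Mcm7 among them, at 23.1%.

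**Figure D4:**
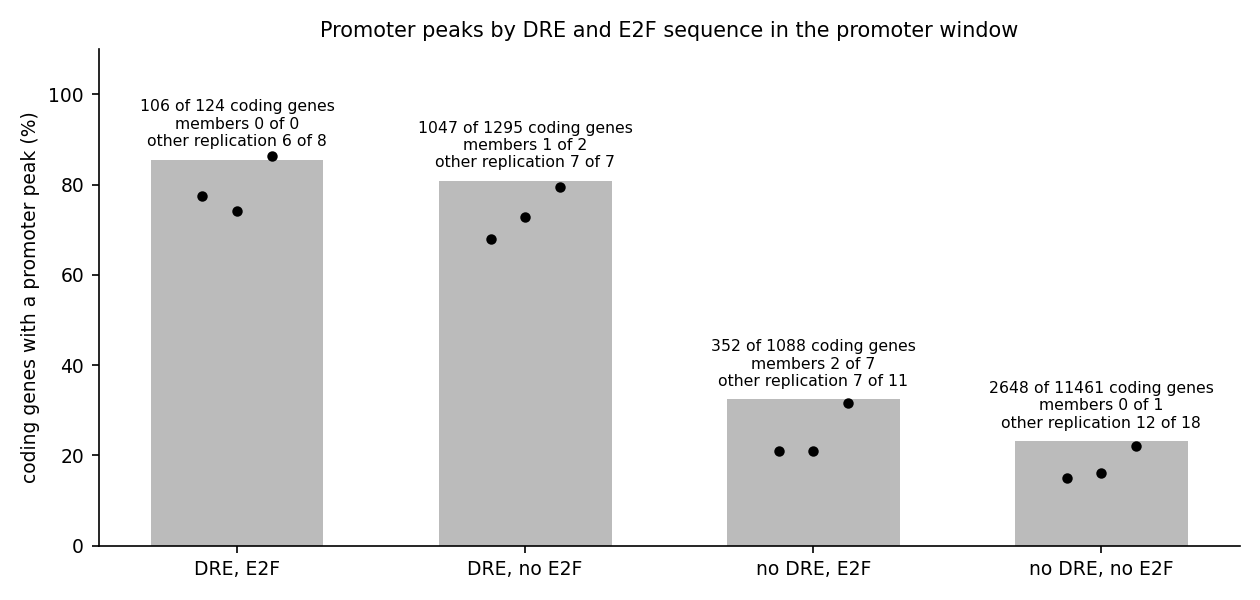
Share of coding genes bound in the conservative list (bars, percent) and in replicates 1, 2 and 3 (points, left to right), by whether the promoter window holds a DRE and an E2F sequence; labels count bound genes among all coding genes, the 10 genes (members) and 44 other replication genes. Both classes with a DRE stand above 80%, and 7 of the 10 genes fall in the class bound at 32.4%.

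The position of the DRE differed between the 2 genes that had one. Counted from the outermost start site, the PCNA DRE began at -27, in the bin from -50 to -1. In that bin 87.1% of 692 coding genes with a DRE were bound. Counted from an inner annotated start it began at -100, in the bin from -100 to -51, in which 77.6% of 388 were bound. The upstream DRE of Orc2 began more than 150 bp upstream, where 78.9% of 275 were bound, and its downstream DRE in the bin from 1 to 43, in which 85.1% of 175 were bound. Orc2 was thus unbound in classes where most genes were bound. At summits, the window of 50 bp to either side held a DRE at 16.3% of 3624 conservative promoter peaks and at 1 of the 3 bound genes, PCNA. ATCGAT was present at 32.8% of those peaks, and at PCNA and Mcm6. None of the 3 summit windows held an E2F sequence, which 2.73% of the promoter peaks did.

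A wider list of 44 other replication genes, grouped by textbook role, set the 10 genes in context. In the conservative list 32 of 44 (72.7%) were bound, beside 29.7% of coding genes, and 20 of 44 were bound in all 3 replicates, beside 17.3%. In the replicates 24, 24 and 30 were bound, a mean of 59.1% ± 7.87 (SD, n = 3). The median percentile of the 32 bound genes was 66.0, beside 64.5 for all bound coding genes, so the ranks of the bound genes lay close to those of bound genes at large. When only genes with no nearer neighbour were counted, 25 of 44 (56.8%) were bound, beside 22.9%. Of the 32, 7 had a DRE in the summit window, beside 16.3% of 3624 conservative promoter peaks.

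By role, and beside 29.7% of all coding genes, 5 of 6 origin recognition and loading genes were bound, Cdc6, the loader of the helicase, being the exception. Of the 10 genes that activate the helicase 7 were bound. Of 9 polymerase genes 6 were bound, and of 5 clamp and clamp loader genes 4. Both topoisomerase genes and all 3 chromatin assembly genes were bound, as were both fork stability genes. Of the flap and ligation genes 1 of 2 was bound, and of the nucleotide supply genes 1 of 2. Only 1 of 3 single-stranded DNA-binding genes was bound, RPA3, with its summit nearer to Met. Of the origin complex genes, Orc3, Orc4, Orc5 and Orc6 were bound in the conservative list and Orc1 and Orc2 were not. The summits at Orc3 and Orc5 were nearer to FLASH and Arpc1, and Orc4 was bound in 1 replicate only, so Orc6 alone had its own start nearest and was bound in all 3 replicates.

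The strongest peak of the wider list was at RfC3, a subunit of the clamp loader, with a signal of 920.57 at rank 100 of the conservative list and percentiles of 88.1, 96.4 and 98.6 in replicates 1, 2 and 3. PolA1, the catalytic subunit of the polymerase that starts synthesis, followed with 802.5 at rank 164 and percentiles of 87.6, 96.2 and 95.9. Both had their own start site nearest. Top1, which relieves torsion ahead of the fork, had a signal of 750.53 at rank 205. Orc5 (671.84), PolA2 (550.5) and DNAlig1 (533.42) followed as signals in the conservative list, and then geminin, the inhibitor of dup, with 513.38 at rank 644, and PolD2 with 477.79. At Orc5, PolA2, DNAlig1 and PolD2 another start site was nearer, of Arpc1, CG31064, DCP1 and CG13933. Orc6 (414.46) and chif (413.15), the partner of the kinase Cdc7, completed the 10 strongest. Mcm5, at 602.34, fell between Orc5 and PolA2.

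**Figure D5:**
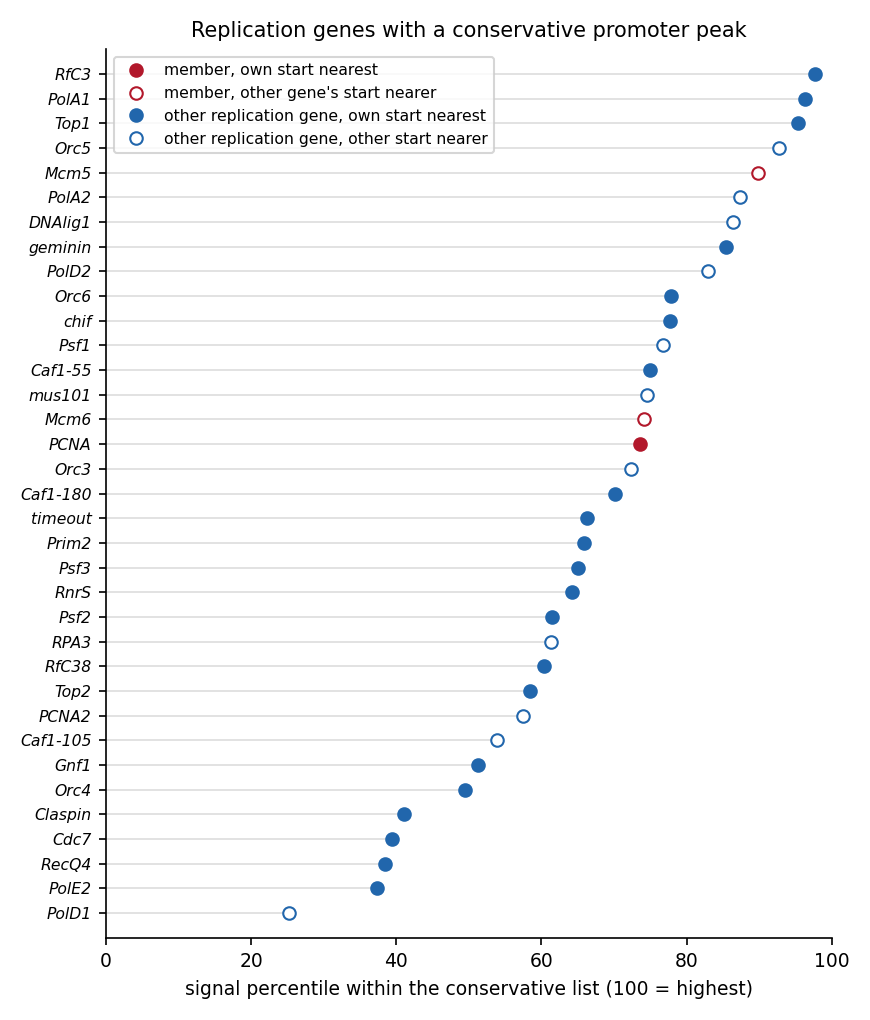
Signal percentile in the conservative list (x axis, 100 is the highest) of the strongest promoter peak of each bound replication gene, with members of the 10-gene set in red and other replication genes in blue; open points had another coding gene's start site nearer the summit. Mcm5 stood at 89.9, Mcm6 at 74.1 and PCNA at 73.6, and RfC3 was highest at 97.7.

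A DRE was present in the promoter window of 15 of the 44 genes, beside 10.2% of coding genes. Of those 15, 13 were bound, beside 81.3% of coding genes with a DRE. An E2F sequence was present in 19, beside 8.68% of coding genes. Of those 19, 13 were bound, beside 37.8% of coding genes with an E2F sequence. The 2 unbound genes with a DRE were PolD3, a subunit of polymerase delta, and Sld5, a subunit of the GINS complex that activates the helicase, and Sld5 had a thresholded peak in replicate 1 alone at percentile 8.6. Together with Orc2 they were the replication genes with a DRE and no conservative promoter peak. All 7 genes with a DRE but no E2F sequence were bound (80.8% of such coding genes), and 6 of 8 with both (85.5%). So were 7 of 11 with an E2F sequence alone (32.4%) and 12 of 18 with neither (23.1%). Among the 10 genes described here 2 of 8 without a DRE were bound, close to the 23.9% of all coding genes without one, while in the wider list 19 of 29 were.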

How the data were processed

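The authors deposited ranked and thresholded peak lists, made with the irreproducible discovery rate (IDR), for each of 3 ChIP-seq libraries and for the series, on assembly dm6 per the labels. Chromatin was sheared to 200 to 800 bp, per the labels. The control experiment that the labels mention is not analysed here. No source used here names the aligner, the peak caller, their versions or the replicates used for each series list. The deposited score is an IDR-scaled value of at most 1000, with 830 the lowest in each thresholded list. The deposited signal comes from the authors' peak caller on an unstated scale, used only within a list. How the caller split close summits could affect distances and ranks.

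Start sites came from Ensembl annotation BDGP6.54, release 115, and sequence from RefSeq Release 6. Summits on the main arms, without the mitochondrial genome and scaffolds, were matched to start sites within 500 bp, and 9 motifs were searched on both strands, with Python 3.11.15 and pandas 2.3.3. Steps were tested on simulated data. The 10 genes and the 44 others were chosen with earlier results of these data known, so their counts stand beside the share of all coding genes, with no test. All 10 genes and 44 of 44 others matched the annotation, 2 of the latter by another name. Named were all 10 genes, the 10 strongest of the wider list and other coding genes with a start within 500 bp of a member's summit. Other genes of the wider list were named to show which were bound or held a DRE. Alternatives changed distance, start sites, list, score, window, motif and replicates. Genes are not replicates, and depth is unknown, so a gene outside the thresholded lists was not called rather than shown to be free of the protein.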

Additional observations from a re-analysis of the deposited data

How the results depend on the processing

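The count of 3 bound genes in the conservative list held at 250 bp, beside 26.8% of coding genes, and at 1000 bp, beside 32.4%. It also held with the most upstream start sites (28.0%) and with peaks overlapping a start site (25.5%). With the upper 50% of peaks by signal it held too, beside 19.7%. It was 5 in series list a and 1 when only genes with no nearer neighbour were counted. The replicate mean of 4.33 was 2.67 at 250 bp, for which no coding-gene share is given here, and 2.33 without nearer neighbours. With the ranked lists cut at a score of at least 540 it was 5.67, from 5, 6 and 6 of the 10 genes. These counts stood beside 26.8%, 28.9% and 35.6% of coding genes in replicates 1, 2 and 3. The alternatives without nearer neighbours were chosen after seeing the data. Leaving out each replicate in turn gave 4.0 to 4.5 bound genes, and mean percentiles of 85.76 to 91.05 for Mcm5, 61.72 to 67.42 for PCNA and 48.48 to 65.79 for Mcm6. The count of genes with a DRE at the conservative summit was 0 in a window of 51 bp and 2 for ATCGAT, and that of genes with a DRE in the promoter was 4 for ATCGAT. The bound share with a DRE was 68.9% and 73.0% in replicates 1 and 2, and without one 15.7% and 16.5%. Their lists are shorter than that of replicate 3, and an effect of list length was not tested. The wider list kept its count within 1.5 times under its 6 alternatives. The side of the coding-gene share on which the 10 genes fell was not stable. In the conservative list 3 of 10 stood beside 29.7%, but beside 32.4% at 1000 bp, and without nearer neighbours 1 of 10 stood beside 22.9%. Without nearer neighbours replicates 1 and 3 also fell below it, at 1 of 10 beside 15.8% and 2 of 10 beside 21.9%. The DRE at the summit went from 1 of 3 beside 16.3% to 0 of 3 beside 8.97% at 51 bp. No paired analysis was possible because the samples form a single group.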

Other observations

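Other core promoter sequences divided the 10 genes as well. Motif 7 was present in the promoter windows of 6 of them, Mcm2, Mcm5, Mcm7, Orc1, PCNA and dpa, beside 11.1% of coding genes, and 2 of those 6 were bound in the conservative list. Over all coding genes 59.1% with Motif 7 were bound, against 26.1% without. Motif 1 was present at Mcm3 alone of the 10 (4.95% of coding genes) and Motif 6 at Mcm5 alone (2.52%). The Ohler E-box (4.57%) and GAGAGA (17.0%) were present at none of the 10.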
